A study of Mus musculus with 2 samples.

Results

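The genes described here serve the endoplasmic reticulum (ER): its chaperones, the enzymes that form disulphide bonds there, the sensors and factors of the unfolded protein response, the machinery that removes misfolded proteins, and the translocon and coat that bring proteins in and carry them out. They were 42 genes listed by name out of 18193 named on the array, and a probe set was counted for a gene only where the annotation gave that gene as its single symbol. The list drew on 97 probe sets and all 42 genes were measured. They were compared in mouse osteosarcoma (bone tumour) cells: the parental Dunn line, labelled non-metastatic, and its subline LM8, labelled highly metastatic. Both lines were untreated and grown in Eagle's minimum essential medium with 10% heat-treated fetal bovine serum, glutamine, antibiotics and 1% non-essential amino acids. Total RNA of each line went onto 1 Affymetrix mouse array. Each line is an established culture sampled once, so a difference between the lines and a difference between these 2 cultures cannot be told apart.

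Proteins that are secreted or sit in membranes enter the ER through the Sec61 channel, fold there with the help of chaperones such as BiP (encoded by Hspa5), and leave in vesicles coated with COPII. When unfolded proteins accumulate, the membrane sensors IRE1 (Ern1), PERK (Eif2ak3) and ATF6 (Atf6) start the unfolded protein response, which slows translation and turns on genes for chaperones and for ER-associated degradation. Bone-forming cells rely on this system because they export large amounts of collagen.

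Signals below are linear intensities, and ratios are log2 of LM8 over Dunn on the brightest measured probe set of a gene unless stated. A probe set was measured where at least 1 array lay above its floor, the median signal of that array (21.06 for Dunn, 18.96 for LM8), and genes were counted as apart at 2-fold, a log2 ratio of 1 or more in size. With 1 array per line no test was possible and folds describe these arrays only. The 3' to 5' signal ratio was 0.708 in Dunn and 0.789 in LM8 for Gapdh, and 1.26 in Dunn and 1.16 in LM8 for Actb. The 12 bacterial hybridisation controls lay lower in LM8 by a mean log2 ratio of -0.24. Of 8 osteoblast lineage markers, 6 were above the floor in both lines (Alpl, Col1a1, Col1a2, Sp7, Ibsp and Pth1r), Dmp1 was below it in both, and Bglap was not analysed here. Of these 6, Ibsp (239 in Dunn, 96.6 in LM8) and Pth1r (1115 and 492) were 2-fold lower in LM8 on their brightest probe sets. None was 2-fold higher, and 3 of the 6 were above 0. Of all measured genes 8.84% were 2-fold lower and 6.51% higher. Of 6 markers of B and plasma cells, which are rich in ER genes, Mzb1 alone was above the floor, at 37.0 in Dunn and 24.2 in LM8, and Jchain, Cd79a, Cd79b, Irf4 and Prdm1 were below it in both. Macrophage markers were dim, with 5 of 6 above the floor in Dunn and 1 of 6 in LM8 and summed signals of 201 and 76.0; Ptprc was below the floor in both. Of 4 endothelial markers Vwf alone was above the floor, at 152 in Dunn and 67.3 in LM8, with Pecam1, Cdh5 and Tek below it in both (summed signals 177 and 90.3). Of 5 epithelial markers 2 passed the floor in Dunn and 1 did in LM8 (summed signals 90.5 and 72.5), with Cdh1, Krt18 and Krt19 below it in both. The part of these markers in the results was not tested.

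Most ER genes had similar signals in the 2 lines. Sec24d and Dnajc3 were at least 2-fold higher in LM8, Ppp1r15a, Derl1 and Edem2 were at least 2-fold lower, and the other 37 lay between. The 2 higher members made up 4.76% of the list, against 6.51% of all 11830 measured genes, and the 3 lower members 7.14%, against 8.84%. By probe set, 2 of 88 measured (2.27%) were 2-fold higher, where 5.91% of all measured probe sets were, and 5 (5.68%) were 2-fold lower, where 7.79% were. Most members were bright. Among genes with a mean signal of 226 or more, the lower quartile of the members, 1 of 31 members (3.23%) was 2-fold higher and 2 were lower, against 5.05% and 5.51% of 3865 such genes, a comparison added after the values were seen. The share of members was below that of all features in each of these counts except the lower bright genes (6.45%), and the gap was widest for the higher probe sets.

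The middle of the list was narrow. The median log2 ratio of the members was -0.14 and that of all measured genes -0.08, and the quartiles were -0.59 and 0.05 for the members and -0.48 and 0.34 for all genes. The median size of the difference was 1.26-fold for the members and 1.33-fold for all genes, and 16 members lay within 0.2 of a log2 ratio of 0. The direction of the list's median hung on the scaling: it was 0.01 with arrays centred on their medians, where the all-gene median was 0.07, and 0.10 with scaling on the hybridisation controls, where it was 0.16. These 3 scalings shift every gene alike, so the members' median minus that of all genes was -0.06 in each, and 25 of 42 members were under the median of all genes. With quantile normalization and signal-dependent centring the members' median was -0.13 and -0.11, where that of all genes was -0.03 in both. In both, 30 of 42 members were below 0, as on the trimmed-mean scale. On the trimmed-mean scale these were 71.4% of the members, against 55.3% of all measured genes. With array medians 21 members were below 0, and with the hybridisation controls 18 were. The medians of the roles moved with the scale too: on the hybridisation controls, chaperones stood at 0.20, lectins and folding enzymes at 0.08, sensors and factors at -0.10, degradation at 0.02 and translocon and export at 0.34. Signals of these arrays cannot tell apart fewer expressing cells and less RNA per cell.

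With a 1.5-fold rule, added after the values were seen, 11 members were lower in LM8 (Ppp1r15a, Derl1, Edem2, Creld2, Dnajb9, Syvn1, Atf6, Pdia4, Manf, Derl3 and Fkbp14) and 3 were higher (Sec24d, Dnajc3 and Dnajc10). The lower ones were 26.2% of the list against 20.3% of all genes, and the higher ones 7.14% against 15.3%. With arrays centred on their medians 6 members were lower, where 1777 of all 11830 genes were, and 3 were higher, where 20.7% were. With scaling on the hybridisation controls the counts were 6 lower and 4 higher, against 12.7% and 24.9% of all genes. Quantile normalization and signal-dependent centring each gave 9 lower, against 18.5% of all genes, and 3 higher, against 16.5% and 16.3%. The excess of lower members over the share of all genes therefore depended on the scaling, since 6 of 42 is close to the all-gene share under the first 2 of these.

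**Figure D1:**
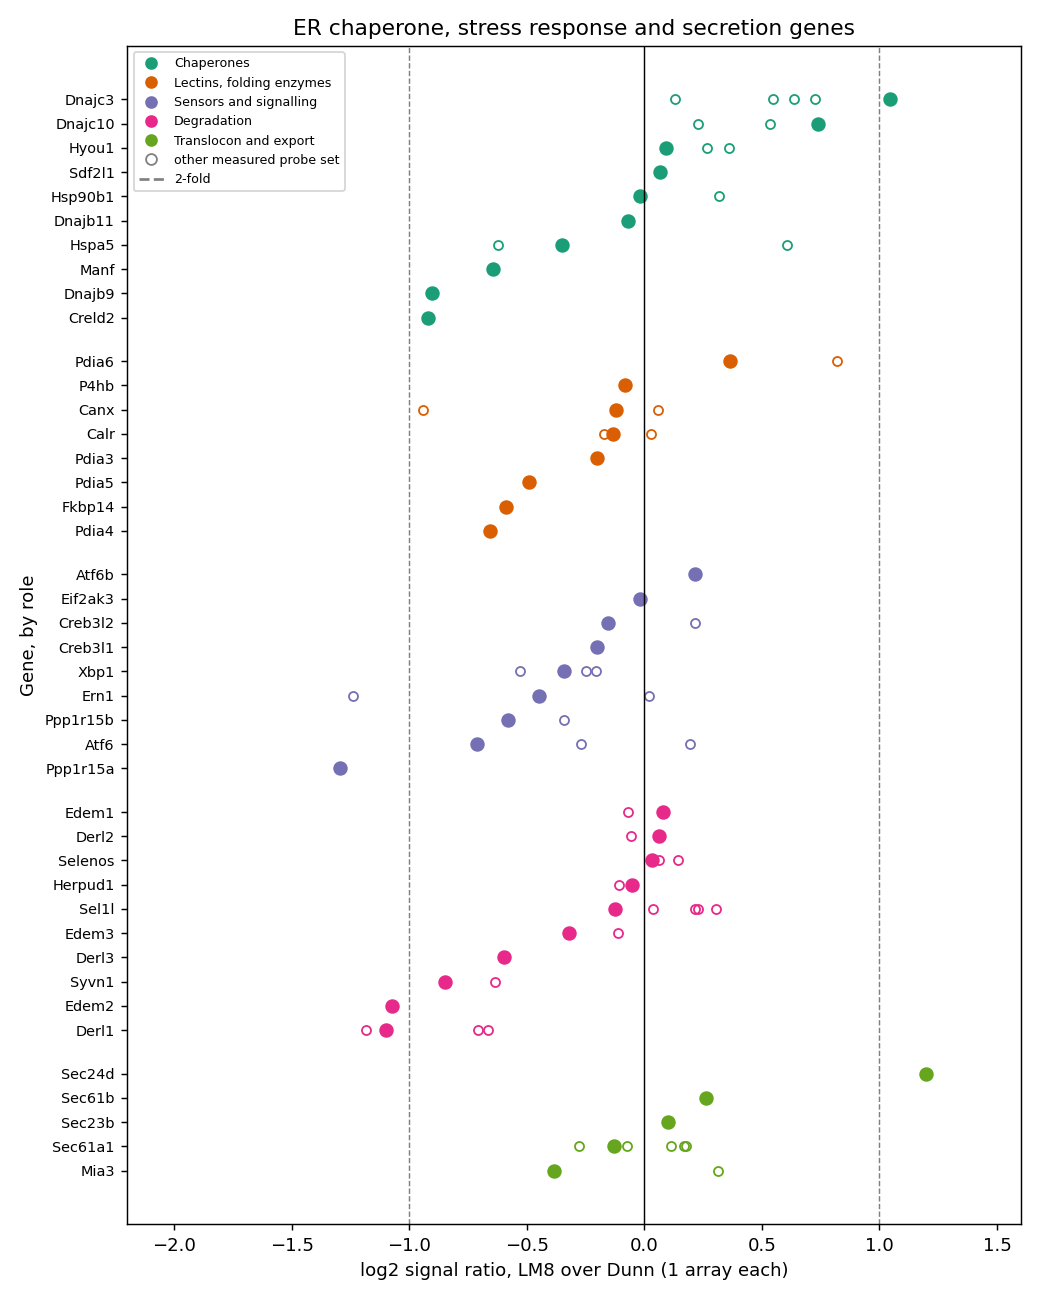
Log2 signal ratio of LM8 over Dunn (horizontal axis) for the 42 ER genes grouped by role (vertical axis). Filled points are the brightest measured probe set, open points the other measured probe sets, and dashed lines mark 2-fold. The brightest probe sets of 37 genes lie between the dashed lines, with Sec24d and Dnajc3 to the right and Ppp1r15a, Derl1 and Edem2 to the left.

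Where a gene had several probe sets, how close their ratios lay differed by gene. Of 23 members with at least 2 measured probe sets, the SD of the log2 ratio between them had a median of 0.19, against 0.30 over 5521 genes of the array. For the members it ran from 0.04 to 0.65 (Hspa5), and the comparison with all genes was not matched for signal. This spread is technical or reflects isoforms and is not replicate error. On the trimmed-mean scale all measured probe sets were below 0 for 6 of the 23 and above it for 5, and in 12 they lay on both sides. The remaining 19 members, including Ppp1r15a, Edem2 and Sec24d, rested on 1 measured probe set.

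Many promoters of these genes carry the ER stress response element (ERSE), to which ATF6 binds together with the CCAAT factor NF-Y. The element was searched as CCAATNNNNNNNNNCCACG on both strands of the RefSeq promoter windows of the GRCm38.p6 assembly, 250 bases before to 50 after each annotated start. Windows were found for 35 of the 42 members. The exact element was present for 9 of these 35 genes (25.7%), and in 0.119% of all 32851 windows. The stretches with a match are shown because the genes that share them ranged from lower to higher in LM8, with the element in capitals. Each is written 5′ to 3′ on the strand of its gene, and a match on the other strand appears as its reverse complement.
Dnajc3, chr14:118937812-118937860, plus strand: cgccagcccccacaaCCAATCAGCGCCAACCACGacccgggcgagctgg
Pdia6, chr12:17266476-17266524, plus strand: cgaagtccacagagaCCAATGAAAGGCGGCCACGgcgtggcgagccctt
Hsp90b1, chr10:86705623-86705671, minus strand: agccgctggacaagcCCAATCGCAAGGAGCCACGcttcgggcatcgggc
Hsp90b1, chr10:86705518-86705566, minus strand: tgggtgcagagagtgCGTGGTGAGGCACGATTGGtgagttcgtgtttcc
Canx, chr11:50325785-50325833, minus strand: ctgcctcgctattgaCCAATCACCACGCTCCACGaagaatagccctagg
Calr, chr8:84847060-84847108, minus strand: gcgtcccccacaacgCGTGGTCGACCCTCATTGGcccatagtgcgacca
Derl3, chr10:75893227-75893275, plus strand: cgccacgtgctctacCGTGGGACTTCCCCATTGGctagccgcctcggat
Syvn1, chr19:6046517-6046565, plus strand: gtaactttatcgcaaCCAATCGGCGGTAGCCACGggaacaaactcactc
Creld2, chr15:88819505-88819553, plus strand: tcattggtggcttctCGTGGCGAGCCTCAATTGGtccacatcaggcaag

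The ninth gene was Hspa5, the best known ERSE gene, whose whole window is given (chr2:34771840-34772139, plus strand). Its exact match lies 65 to 47 bases before the start.
Hspa5: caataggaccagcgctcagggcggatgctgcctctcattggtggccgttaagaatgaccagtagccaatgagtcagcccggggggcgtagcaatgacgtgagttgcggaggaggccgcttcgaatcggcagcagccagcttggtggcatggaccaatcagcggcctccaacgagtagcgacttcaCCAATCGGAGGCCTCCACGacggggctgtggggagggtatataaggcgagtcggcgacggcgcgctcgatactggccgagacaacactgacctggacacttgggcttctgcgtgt
The 9 genes with the element did not share a direction: their log2 ratios ran from -0.92 for Creld2 to 1.04 for Dnajc3, with a median of -0.13 and 7 of 9 below 0. The 26 members with a window but no exact match had a median of -0.10, with 17 below 0. These counts are on the trimmed-mean scale, where 55.3% of all measured genes were below 0. With scaling on the hybridisation controls, Calr, Canx and Hsp90b1 moved above 0, while Hspa5, Derl3, Syvn1 and Creld2 stayed below. A related element, ERSE-II, searched as ATTGGNCCACG, was found for Herpud1 and Dnajb11 and in 0.0365% of all windows. Neither gene had an ERSE in its window, and both had ratios near 0 (-0.05 and -0.07).
Herpud1, chr8:94386362-94386402, plus strand: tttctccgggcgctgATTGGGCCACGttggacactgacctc
Dnajb11, chr16:22857837-22857877, plus strand: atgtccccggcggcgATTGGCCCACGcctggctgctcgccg
A match is a description of these letters, and no binding was measured here.

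**Figure D2:**
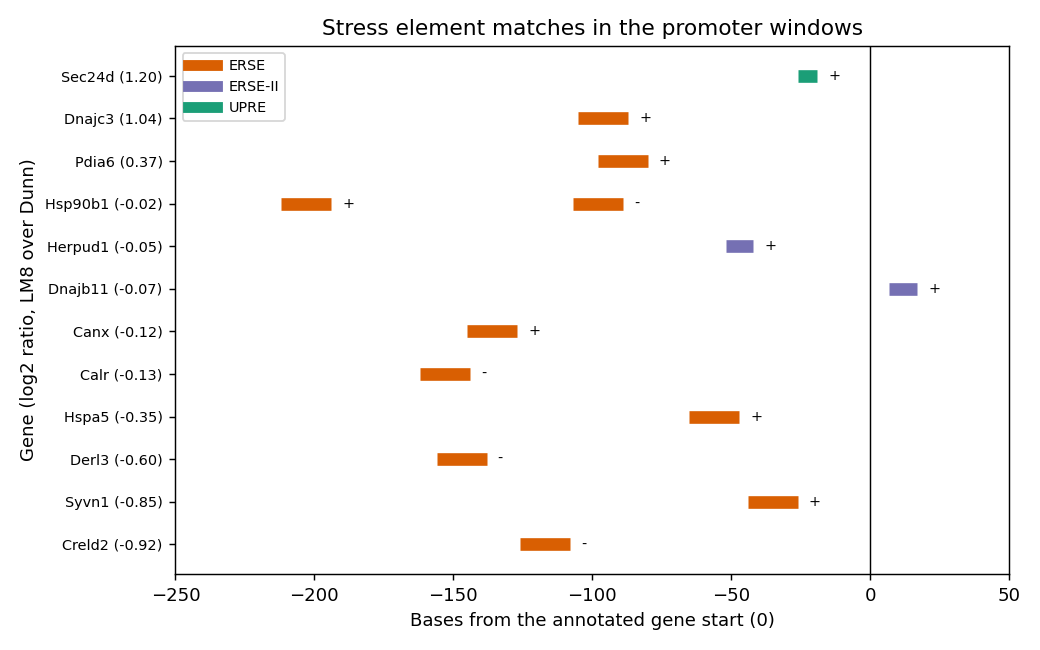
Position of exact ERSE, ERSE-II and UPRE matches (bars) in bases from the annotated gene start, with the strand of the match beside each bar, for 12 ER genes ordered by their log2 ratio of LM8 over Dunn (in brackets). ERSE matches lie between 212 and 26 bases before the start, in genes from the bottom (Creld2, -0.92) to near the top (Dnajc3, 1.04).

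Among the Hsp70 and Hsp90 chaperones and their helpers, Dnajc3 was the single member of 10 that was 2-fold apart, and the median ratio was -0.05. The brightest probe set of Hspa5, the Hsp70 of the ER and its main stress marker, read 6541 in Dunn and 5123 in LM8, the next 3947 and 2565, and the dimmest 178.5 and 272. The 2 bright probe sets were lower in LM8 (log2 ratios -0.35 and -0.62), while the dim one was higher (0.61), so Hspa5 has no settled direction. Hsp90b1, the ER form of Hsp90, stood at 2082 and 2054 on its brightest probe set and at 1657 and 2064 on the other. Its log2 ratios, -0.02 and 0.32, show nearly level signals. Hyou1, a large Hsp70 that acts as an exchange factor for BiP, was at 622 and 663, and its 3 probe sets gave 0.09 to 0.36.

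The J-domain co-chaperones, which bring clients to BiP and trigger its ATPase, split. The brightest probe set of Dnajc3, which also inhibits eIF2alpha kinases, read 193 in Dunn and 399 in LM8, 2.06-fold higher in LM8. The other 4 probe sets read 123 and 203, 107 and 118, 80.4 and 118, and 24.1 and 37.5, all higher in LM8 with log2 ratios from 0.13 to 0.73. All 5 therefore pointed the same way, but 1 reached 2-fold, and the mean over them was 0.62. Dnajc10, which reduces disulphides in proteins bound for degradation, was 1.67-fold higher (393 against 656), with 0.23 and 0.54 on its other probe sets. Dnajb9, a target of spliced XBP1 that holds IRE1 in check, lay at the other end, at 531 in Dunn and 283 in LM8, 1.87-fold lower on its 1 probe set. Dnajb11, which binds unfolded clients with BiP, was at 698 and 664.

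The small stress-inducible partners also differed. Creld2 had 767 in Dunn and 405 in LM8, 1.89-fold lower, and Manf, a secreted stress factor that binds BiP, had 4319 and 2766, 1.56-fold lower. Sdf2l1, which forms a complex with Dnajb11, stood at 505 and 529. Each of these 3 genes had 1 probe set. Creld2, Dnajb9 and Manf kept their direction in all 11 settings that recomputed the ratio (scalings, floors and gene summaries), with highest log2 ratios of -0.68, -0.66 and -0.40. Each has 1 probe set, well above the floors, so only the scalings and an added pseudocount could move these ratios.

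None of the 8 lectin chaperones and folding enzymes was 2-fold apart, and 7 lay below 0, with a median of -0.17. Of all measured genes 55.3% lay below 0. With scaling on the hybridisation controls 3 of the 8 were below 0. The lectin chaperones, which hold glycoproteins while they fold, were level. The brightest probe set of Calr (calreticulin) had 3097 and 2824, and that of Canx (calnexin) 2754 and 2529.7. A dim probe set of Canx, with 117 in Dunn and 60.8 in LM8, stood apart from the others at -0.94. Pdia3, the disulphide isomerase that works with both lectins, was at 3804 and 3311, and P4hb, the founding disulphide isomerase and a subunit of the collagen prolyl hydroxylase, at 2874 and 2716. Pdia6, an isomerase that can dampen the sensors, was the 1 member above 0, at 936 and 1205 (0.37). Its other probe set was near the floor in Dunn (21.9 against 38.6). Pdia4 was 1.58-fold lower in LM8 (591 against 375), Pdia5 stood at 286 and 203 (-0.49), and Fkbp14, a prolyl isomerase that acts on collagen, lay at 137 and 91.1 (-0.59). With array medians or the hybridisation controls as the scale, Fkbp14 stayed below 0, whereas Calr, Canx and P4hb moved to 0.11 or above with the controls.

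None of the 3 sensors was 2-fold apart on its brightest probe set, and the median of the 9 sensors, factors and phosphatase subunits was -0.34. Ern1, which encodes the kinase and nuclease IRE1, read 232 in Dunn and 170.0 in LM8 on its brightest probe set. Its next probe set was level at 60.6 and 61.3, and the third read 63.7 and 27.0, a log2 ratio of -1.24, so its probe sets ranged over more than 2-fold. The 2 further probe sets of Ern1 were below the floor in both lines. Eif2ak3, which encodes the kinase PERK, was level at 154 and 152 on its 1 measured probe set, and 2 others were below the floor. Atf6, a membrane-bound transcription factor that is cut free under stress, had 174 and 106 on its brightest probe set (1.64-fold lower), 142 and 118 on the next, and 75.2 and 86.1 on the dimmest. These ratios (-0.71, -0.27 and 0.20) do not settle a direction for Atf6. Its relative Atf6b was at 192 and 223.

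Xbp1, whose mRNA is spliced by IRE1 to give the active factor, stood below 0 on each of its 4 probe sets, by less than 2-fold. The signals were 1802 in Dunn and 1421 in LM8, 1907 and 1322, 474 and 399, and 87.8 and 76.2. The log2 ratios ran from -0.53 to -0.21, and the brightest probe set's ratio of -0.34 came to -0.10 at the highest over the 11 settings. Splicing of Xbp1 was not analysed here. Creb3l1, a related membrane-bound factor needed for collagen export in bone, had 217 and 189, and Creb3l2, which activates Sec23a in cartilage, 66.5 and 59.7.

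Ppp1r15a (GADD34), the stress-induced subunit that directs a phosphatase to eIF2alpha and so restarts translation, was the lowest member. Its 1 probe set gave 558 in Dunn and 227 in LM8, a 2.46-fold lower signal. It was 2-fold lower in all 11 settings, from -1.33 to -1.05. As Ppp1r15a has 1 probe set, well above the floors, only the scalings and an added pseudocount could move its ratio. Ppp1r15b, its constitutive counterpart, read 634 and 423 (-0.58), with 93.2 and 73.5 on its other probe set. The promoter of Ppp1r15a is shown because it was the one member window with a full cyclic AMP response element, TGACGTCA, the site of ATF and CREB factors. This motif was searched after the values were seen and reads the same on both strands. It was found for 1 of the 35 members with a window (2.86%) and in 1.79% of all windows. The window is chr7:45526219-45526518, minus strand, and the match (capitals) lies 12 to 5 bases before the start.
Ppp1r15a: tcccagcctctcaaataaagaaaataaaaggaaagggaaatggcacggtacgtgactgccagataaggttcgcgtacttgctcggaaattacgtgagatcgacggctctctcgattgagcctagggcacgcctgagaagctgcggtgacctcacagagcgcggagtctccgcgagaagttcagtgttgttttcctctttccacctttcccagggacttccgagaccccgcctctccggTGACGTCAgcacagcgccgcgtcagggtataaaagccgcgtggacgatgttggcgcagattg

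Most genes listed for PERK and its factor ATF4, with Atf4 among them, lay below 0, as Ppp1r15a did. Like the other lists, this one was chosen with earlier results of these data known. Of 10 such genes none was 2-fold higher in LM8, 3 were 2-fold lower (Nupr1, Ddit3 and Trib3), 9 were below 0, and the median was -0.76. Of all measured genes 6.51% were 2-fold higher, 8.84% were 2-fold lower and 55.3% were below 0. On the hybridisation controls 7 of the 10 were below 0, the median was -0.51 and 2 (Nupr1 and Ddit3) were 2-fold lower, where 639 of all 11830 genes were. Nupr1, a small stress-induced nuclear protein gene, had 1631 in Dunn and 427 in LM8, 3.82-fold lower, and its other probe set gave -2.23. Ddit3, which encodes the death-associated factor CHOP, was at 1314 and 456, and Trib3, an inhibitor of ATF4, at 1857 and 919.7. Cebpb, a partner of CHOP, was 1.85-fold lower (1979 against 1068). Asns, the asparagine synthetase gene, was the 1 gene of the list above 0, at 3546 and 4036. Atf4 itself stood at 4505 and 3373 (-0.42), with 0.02 on its other measured probe set. These genes are known to respond to lack of amino acids as well as to ER stress.

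Degradation genes held the other 2 members that were 2-fold lower. Their median was -0.22 over 10 genes, of which 3 were above 0. Derl1, a channel component through which misfolded proteins leave the ER, gave 1670.2 in Dunn and 779.8 in LM8, then 846 and 517, 609 and 384, and 211 and 92.7. All 4 probe sets were lower in LM8, by 1.58-fold to 2.28-fold. Its paralog Derl2 was level at 545 and 568, and Derl3 was dim, at 28.7 in Dunn and under the floor in LM8, at least 1.51-fold lower. Edem2, which starts the mannose trimming that marks glycoproteins for disposal, had 164 in Dunn and 77.6 in LM8, 2.11-fold lower on its 1 measured probe set. Edem1 and Edem3, which trim further, were at 562 and 593 and at 295 and 236. Derl1 and Edem2 passed 2-fold by little: with arrays centred on their medians their log2 ratios were -0.95 and -0.92, and with scaling on the hybridisation controls -0.86 and -0.83.

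The ubiquitin ligase gene Syvn1 (HRD1) was 1.80-fold lower in LM8 (297 against 165), with 221 and 142 on its other probe set. Its partner Sel1l was level, with 379 and 348 on the brightest of 5 probe sets and the other 4 slightly above 0 (0.04 to 0.30). Herpud1, a scaffold of the ligase complex, stood at 1054 and 1017, and Selenos, a selenoprotein that links Derlins to the extraction ATPase, at 1069 and 1091. The members of this complex thus differed from one another: Derl1 and Syvn1 were lower on every probe set, while the probe sets of Herpud1 and Selenos lay between -0.11 and 0.14.

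**Figure D3:**
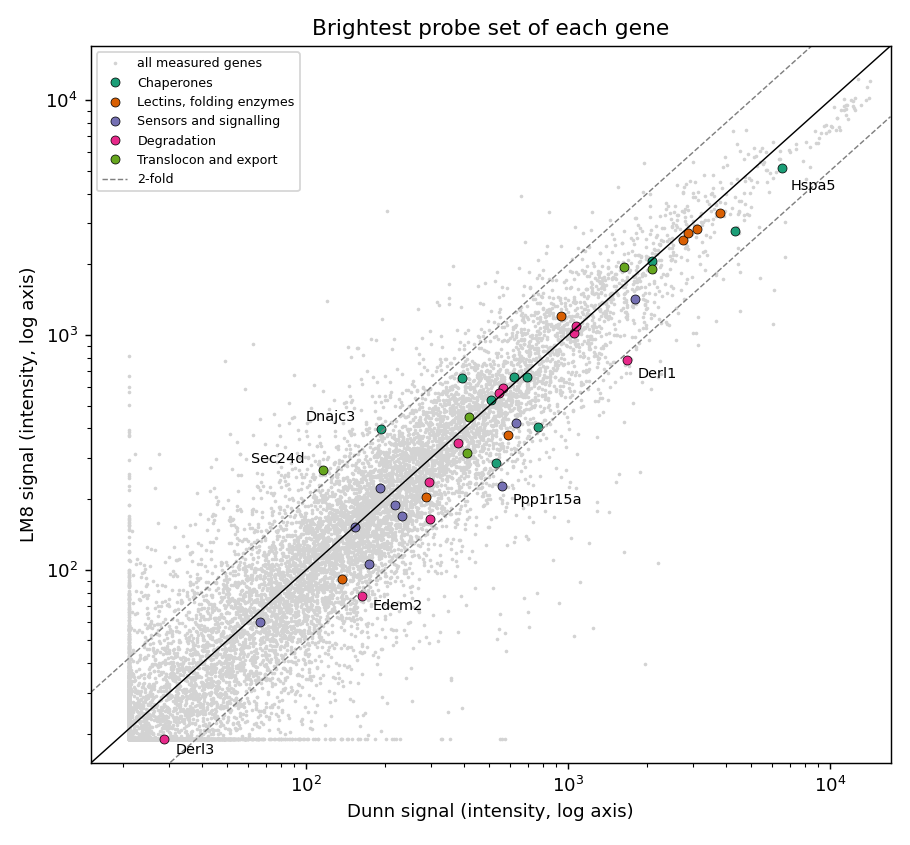
Signals of the brightest probe set of each gene in Dunn (horizontal) and LM8 (vertical), both on log axes, with values under the floor set to it. Grey points are the 11830 measured genes, coloured points the 42 ER genes by role, the solid line marks equal signals and dashed lines 2-fold. The ER genes follow the line of equal signals, with Derl1, Edem2 and Ppp1r15a under the lower dashed line and Dnajc3 and Sec24d over the upper one.

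Of the 5 genes for entry into the ER and exit from it, Sec24d was 2-fold apart, 3 were above 0 and 2 below, and the median was 0.10. Sec24d, a cargo-selecting subunit of the COPII coat that is needed for procollagen export, was the highest of all 42 members, at 116 in Dunn and 265 in LM8. The fold was 2.29 on its 1 probe set, and the log2 ratio ran from 1.06 to 1.44 over the 11 settings. Only the scalings and an added pseudocount could move this ratio of Sec24d. Its coat partner Sec23b was at 417 and 447. Mia3 (TANGO1), the receptor that packs procollagen into COPII carriers, had 411 and 315 on its brightest probe set, 135 and 168 on the next and 124 and 94.7 on the third, with ratios on both sides of 0. The channel genes were level: the 6 probe sets of Sec61a1 lay between -0.28 and 0.18, and Sec61b stood at 1628 and 1954. A further probe set shared by Sec61b and Gm10320 was not counted and was under the floor in both lines. The window of Sec24d (chr3:123267246-123267545, plus strand) is shown because it was the one member window with TGACGTGG, the core of the unfolded protein response element (UPRE) bound by XBP1 and ATF6. It was searched on both strands, overlaps no other match in this window and lies 26 to 19 bases before the start (capitals). It was found for 1 of the 35 members with a window (2.86%) and in 0.676% of all windows.
Sec24d: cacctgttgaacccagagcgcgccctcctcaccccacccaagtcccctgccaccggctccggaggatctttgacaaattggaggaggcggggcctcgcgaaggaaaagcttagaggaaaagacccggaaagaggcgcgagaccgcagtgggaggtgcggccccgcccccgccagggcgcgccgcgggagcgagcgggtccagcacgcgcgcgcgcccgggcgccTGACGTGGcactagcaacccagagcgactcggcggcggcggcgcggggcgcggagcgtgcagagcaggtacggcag

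Other COPII genes did not share the ratio of Sec24d. Of 18 measured genes of the coat, its organisers and the retrieval receptors, none was 2-fold higher and Sec16b, an organiser of exit sites, was 3.77-fold lower (210.4 against 55.8), with a median of 0.02. The paralogs Sec24a, Sec24b and Sec24c gave -0.29, 0.11 and 0.47, and Sec23a 0.58 (338 against 504). Kdelr3, a receptor that returns chaperones from the Golgi, was 1.86-fold lower (527 against 283), while Kdelr1 and Kdelr2 gave 0.20 and 0.27. Preb, the exchange factor that starts coat assembly, was 1.56-fold higher (533 against 831). Among 16 genes of glycan transfer and trimming, Lman1, a cargo receptor for glycoproteins, was 2.42-fold higher (385 against 933), although its 4 measured probe sets ranged from -0.90 to 1.32. The others lay between, with Ostc, Dad1 and Tusc3, all of the oligosaccharyltransferase, at 0.70, 0.58 and 0.47 and a list median of -0.03. Of 21 measured genes of signal recognition, the translocon and signal peptidase, Sec11c was 2.02-fold higher (153 against 309, and -0.36 on its other probe set). None was 2-fold lower on its brightest probe set. Srp19, Spcs3 and Tram1 gave 0.80, 0.78 and 0.72 (-0.46 on the other probe set of Tram1), and the median was 0.06. Dimmer probe sets of Sec62 and Ssr1 went down to -1.98 and -1.11, while their brightest gave -0.36 and 0.32. On the hybridisation controls Srp19 and Spcs3 passed 2-fold as well.

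Among further folding genes, Qsox1 and Ero1a differed by more than any member did, while no further degradation gene did. Of 20 measured disulphide and prolyl isomerase genes, Qsox1, a secreted sulphydryl oxidase, was 4.09-fold lower in LM8 (442 against 108), and Ero1a, the oxidase that recharges disulphide isomerases and is also induced by hypoxia, was 2.78-fold higher (377 against 1048). All 3 probe sets of Ero1a were above 0 (0.80 to 1.48), and both measured ones of Qsox1 below. The membrane thioredoxins Tmx2 and Tmx4 were 1.98-fold and 1.84-fold higher, and over 2-fold with array medians or the hybridisation controls, and the list median was 0.12. Serpinh1, the collagen chaperone HSP47, was level at 3610.2 and 3895. Of 14 other degradation genes, Ufd1, a cofactor of the extraction ATPase, was 2.32-fold higher (190.4 against 441) and the ligase gene Rnf139 2.17-fold lower (497 against 229; 0.25 on its other probe set; under 2-fold with array medians). Herpud2 and Faf2 followed at -0.96 and -0.95, and the list median was -0.42. None of 9 genes that activate the membrane-bound factors was 2-fold apart (median -0.18). Nfyb, a subunit of the ERSE-binding NF-Y, stood at 0.73 and Rtcb, the ligase that joins spliced Xbp1, at -0.60. The protease Mbtps1, which cuts ATF6, was at -0.55. Creb3l3 was at -0.35, but its 1 probe set was near the floor (33.0 in Dunn, 25.9 in LM8). The probe sets of Rtcb ranged from -0.60 to 0.14 and those of Mbtps1 from -0.90 to 0.37. Over all 108 measured genes of the other ER lists, 4 were 2-fold higher and 6 lower, with a median of 0.00. Of all measured genes on the array 6.51% were 2-fold higher and 8.84% lower.

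**Figure D4:**
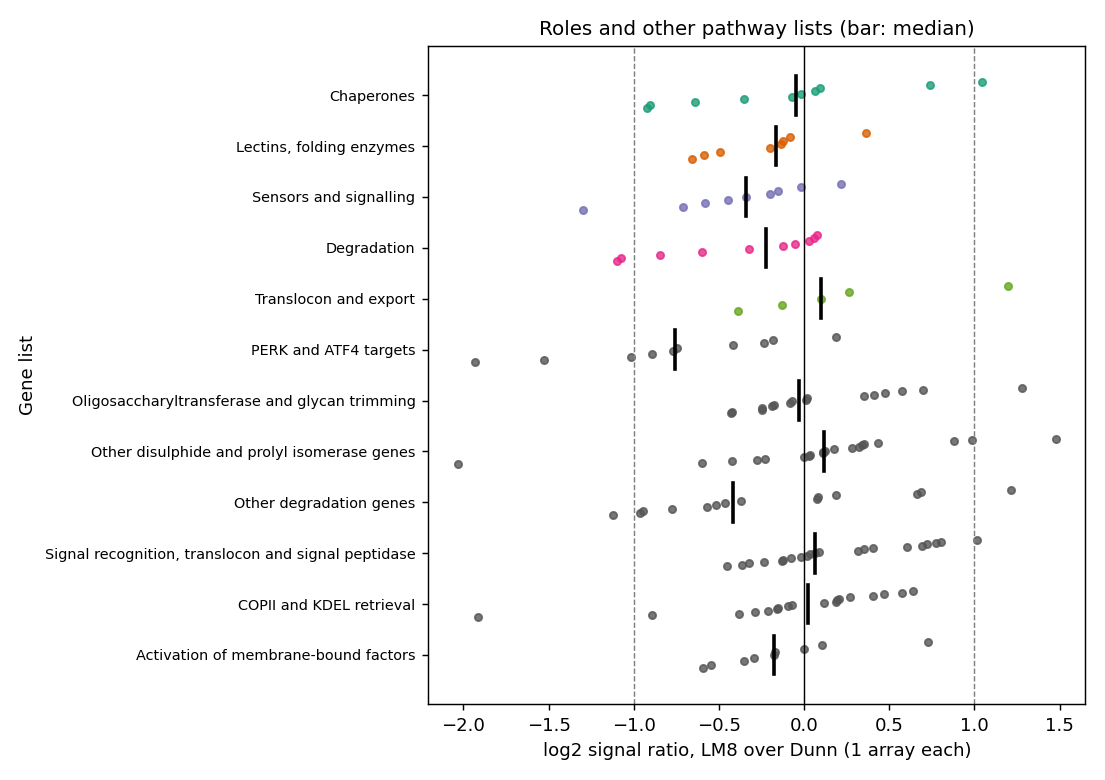
Log2 signal ratio of LM8 over Dunn for each measured gene (points) of the 5 member roles (coloured) and 7 other ER pathway lists (grey), with a black bar at each median and dashed lines at 2-fold. The median of the PERK and ATF4 targets, -0.76, lies lowest of the 12, and those of the other lists lie between -0.42 and 0.12.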

How the data were processed

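Each line had 1 array (Mouse430_2 chip type, per the file headers). The authors deposited 1 linear intensity per probe set, and the submitters' processing notes name MAS5; version and settings are not given in the sources used here. Both arrays came with a 2% trimmed mean of 100. Here 64 control probe sets were set aside, the other 45037 were put on a common trimmed mean (factors of 1.00), and signals under an array's median were set to it. Symbols came from the platform annotation, updated through gene identifiers against GRCm38.p6 (99.4% matched). Each gene was read from the brightest of its measured probe sets (mean of log2 signals). The steps were tested on simulated arrays with changes well over 2-fold planted in genes well above the floor. Differences near 2-fold and dim genes were not covered by that test. Members and lists were chosen with earlier results of these data known. Full values are given for members with any probe set 2-fold apart, with probe sets over 0.5 on opposite sides of 0, and for 6 stress genes whatever their values; each other list names up to 4 genes with the largest differences, and further genes were named after their values were seen. Alternatives were 4 scalings, 2 other floors, no floor, a pseudocount, 2 gene summaries and stricter or weaker rules. No protein sequences were used. Tools were statsmodels 0.14.6 for the lowess, matplotlib 3.10.9 for figures, and pandas 2.3.3, scipy 1.17.1 and numpy 2.4.6 under Python 3.11.15.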

Additional observations from a re-analysis of the deposited data

How the results depend on the processing

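The precision is limited by 1 array per line. The count of members 2-fold higher, 2 here, was 1 with a pseudocount at the array median and no filter, with the mean over measured probe sets, with the median over probe sets above both floors, with the rule that all probe sets be 2-fold apart, and among bright genes; it was 0 with a 3-fold rule. Sec24d was the gene kept where the count was 1, except among bright genes, where it was Dnajc3. The count of members 2-fold lower, 3 here, was 1 (Ppp1r15a) with array medians and with scaling on the hybridisation controls, 0 with a 3-fold rule and 11 with the 1.5-fold rule. It was 2 with the higher floor, the pseudocount, the mean, the median, the rule on all probe sets and among bright genes. The count of member probe sets 2-fold apart, 7 here, was 4 with the hybridisation controls, 4 with a pseudocount and 0 at 3-fold. The median of the members moved by less than 0.30 (the median over genes of the SD among probe sets) under every scaling, floor and gene summary. Of 110 recomputed ratios of the 11 members given in full, 97 moved by less than 0.30 and 2, both of Atf6, moved more. A further 11 dropped under 2-fold (Derl1, Edem2 or Dnajc3). Of these, Dnajc3 also moved by more than 0.30 with the mean (0.62) and the median (0.64) over probe sets. Of the 2-fold ratios 0 changed sign. The cause of these shifts was not tested.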
